A study of Homo sapiens with 11 samples.

Results

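The 9 genes UPF1, UPF2, UPF3A, UPF3B, SMG1, SMG5, SMG6, RBM8A and MAGOH encode factors of nonsense-mediated decay (NMD) and of the exon junction complex. They were taken by gene name from a table of 57773 genes with an FPKM value (fragments scaled to transcript length and library size) in each of 9 RNA-Seq libraries, and from tables of splicing events compared between S34F and wild-type (WT) cells, which held 53 events of these genes among 92662 in all. The cells were HCC78, a lung adenocarcinoma line that itself carries the S34F mutation of the splicing factor U2AF1 and a SLC34A2-ROS1 fusion. Stable subclones carried a lentiviral, doxycycline-inducible cDNA for FLAG-HA tagged U2AF1, either WT or S34F. There were 2 libraries of induced WT cells (WT dox+), 2 of induced S34F cells (S34F dox+), 2 of uninduced WT cells (WT dox-), 1 of uninduced S34F cells (S34F dox-) and 2 of the parental line. The sample labels call the parental line dox-, whereas the study's supplementary data name it with doxycycline. The labels give the S34F allele as 62% and 65% of U2AF1 mRNA in S34F dox+, 12% and 14% in WT dox+, 33% and 33% in WT dox-, 28% in S34F dox- and 32% and 32% in the parental line, so every group expressed the mutant allele to some degree. No source used here says whether the replicates were separate cultures or how many subclones were sequenced, and p-values then measure only the spread between these samples, which may be technical.

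NMD degrades mRNAs whose translation ends well before the last exon junction, and it also limits many normal transcripts. Splicing leaves an exon junction complex upstream of each junction, UPF3B and UPF2 join it, and a ribosome that stops early brings UPF1 to it. SMG1 then phosphorylates UPF1, and SMG5 and SMG6 bind phosphorylated UPF1 and lead to decay of the mRNA. U2AF1 binds the AG at the 3′ end of introns, and its S34F form changes which 3′ splice sites are used, a known source of transcripts that NMD can act on.

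U2AF1 itself was at 278 and 299 FPKM in WT dox+, at 164 and 223 in S34F dox+, and at 103 to 115 where it was not induced. Of 13 lung and epithelial marker genes, 10 had a mean above 10 FPKM. The alveolar surfactant gene SFTPC was at 0 to 0.69, SFTPB at 0.25 to 2.05 and the lung marker NAPSA at 1.73 to 9.97 FPKM. Of 10 stromal, endothelial and immune markers, 9 were found by gene name (all but PECAM1). Of these 9, 1 had a mean above 10 FPKM (the macrophage and lysosome gene CD68). Their summed level was 30.6 to 41.1 FPKM in the dox+ libraries and 19.99 to 33.1 in the others. The number of genes at 1 FPKM or more was 15736 to 20896 in the dox+ libraries and 13661 to 14688 in the others. The table holds no counts, so the number of reads per library was unknown and no counting interval is given.

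All 9 genes were expressed in all 9 libraries and all passed the minimum mean of 1 FPKM, as did 15179 genes in all. FPKM is a value per length, so levels can be set side by side between genes, but in bulk RNA fewer expressing cells and less RNA per cell cannot be told apart. RBM8A, which encodes the exon junction protein Y14, had the highest mean over the 9 libraries, 117 FPKM. MAGOH, the binding partner of Y14, had a mean of 64.5 and UPF3B, a link between the junction complex and UPF2, of 59.0. SMG5, an adaptor of phosphorylated UPF1, followed at 37.6. The kinase SMG1 was at 28.7, the helicase UPF1 at 27.2, the scaffold UPF2 at 26.2 and UPF3A, a paralog of UPF3B, at 24.3. SMG6, an endonuclease that cuts the target mRNA, was lowest at 10.4. The ranges of neighbours in this order overlapped, except between RBM8A and MAGOH, between UPF3B and SMG5 and between UPF3A and SMG6. Of 13 near-identical copies listed, MAGOHB among them, only 7 were found by gene name, so the levels of the rest are not known. The pseudogenes found were low, with means of 0.913, 1.05 and 2.66 FPKM for UPF3AP1, UPF3AP2 and UPF3AP3, 2.57 for RBM8B and 0.296 for MAGOH2, apart from SMG1P1 at 75.8.

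**Figure D1:**
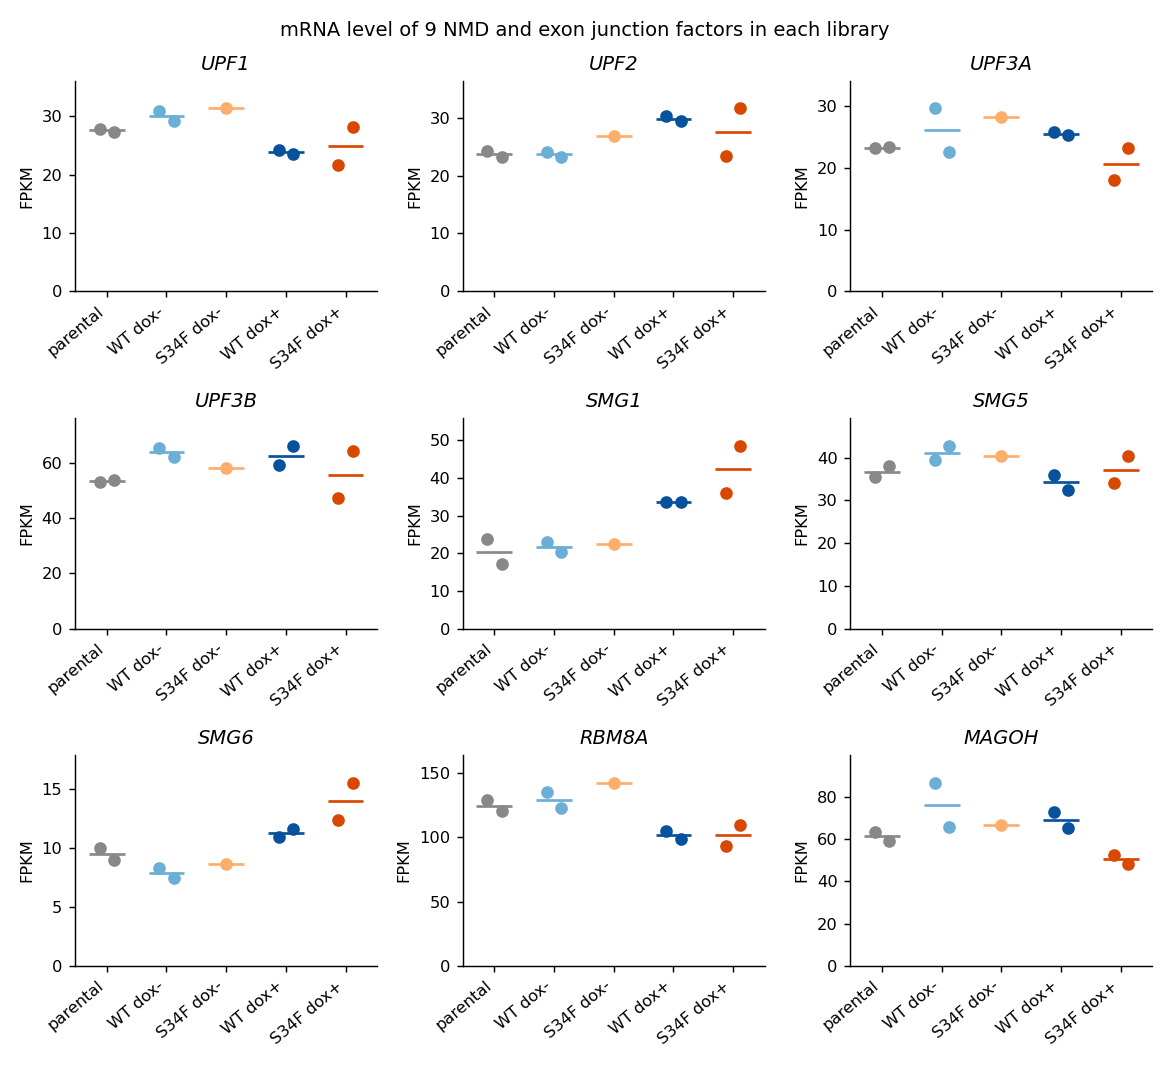
FPKM of each of the 9 genes (vertical axis, from 0) in the 5 groups of libraries. Points are libraries and bars are group means. SMG1 and SMG6 were higher, and RBM8A lower, in all 4 dox+ libraries than in the 5 others, and MAGOH was lowest in the 2 S34F dox+ libraries.

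The level of each gene was first compared between S34F dox+ and WT dox+, the lines induced for the mutant and the wild-type protein. Mean U2AF1 also differed, at 194 FPKM in S34F dox+ and 288 in WT dox+. The allele, the level of U2AF1 and the line cannot be told apart in this contrast. No gene of the 9 passed the test (limma-trend on log2(FPKM + 1) over the 15179 genes, two-sided, Benjamini-Hochberg adjusted p under 0.05). Over all genes tested 8 passed, which is 0.0527%. At an unadjusted p under 0.05 there was 1 gene of the 9, MAGOH, where all genes gave 6.78%. The median difference of the 9 genes was -0.01 on the log2 scale, against 0.03 for all genes tested.

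MAGOH was at 52.7 and 48.1 FPKM in S34F dox+ and at 73.1 and 65.5 in WT dox+. Its other values were 86.7 and 65.5 in WT dox-, 66.7 in S34F dox- and 63.3 and 59.2 in the parental line. Both S34F dox+ libraries lay below the other 7. The difference between S34F dox+ and WT dox+ was -0.45 ± 0.15 (log2, SE; adjusted p = 0.623). The ratio of MAGOH to RBM8A FPKM within a library, which no scaling of libraries can move, was 0.564 and 0.439 in S34F dox+ and 0.697 and 0.664 in WT dox+. In the 5 other libraries it ran from 0.468 to 0.641, so the S34F dox+ ratios lay within or below that range and the WT dox+ ratios above it. MAGOHB, a second gene with a near-identical protein, had means of 48.3 ± 0.24 FPKM in S34F dox+ and 54.7 ± 11.2 in WT dox+ (each SD, n = 2). Reads of MAGOH and MAGOHB may have been split between them by the authors' estimate.

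Another 3 genes had no overlap between the S34F dox+ and WT dox+ libraries, which makes 4 of 9, where 35.8% of all genes tested did not overlap. UPF3A was at 18.0 and 23.2 FPKM in S34F dox+ and 25.7 and 25.3 in WT dox+, a difference of -0.31 ± 0.17 (adjusted p = 0.775). SMG1 was at 36.1 and 48.5 FPKM in S34F dox+ and 33.7 and 33.5 in WT dox+, a difference of 0.31 ± 0.20 (adjusted p = 0.807). SMG6 was at 12.3 and 15.5 FPKM in S34F dox+ and 10.9 and 11.6 in WT dox+, a difference of 0.28 ± 0.16 (adjusted p = 0.776). In each of these genes the S34F dox+ replicates were farther apart than the WT dox+ replicates. Leaving out 1 S34F dox+ replicate moved the differences to between -0.48 and -0.13, 0.10 and 0.52, and 0.12 and 0.43, in that order of genes. The other 5 genes overlapped, with differences from -0.18 (UPF3B) to 0.11 (SMG5) on the log2 scale. With 2 libraries a group, the 95% confidence intervals stayed wide, from -0.80 to -0.10 for MAGOH and from -0.28 to 0.26 for RBM8A.

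**Figure D2:**
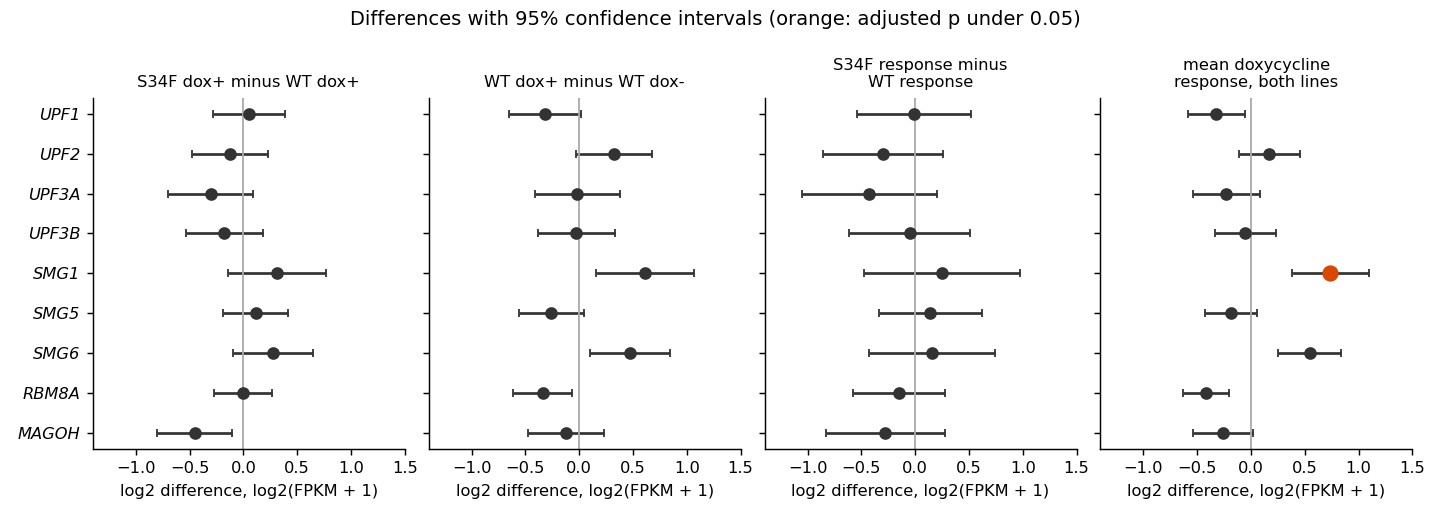
Difference of log2(FPKM + 1) for each gene in 4 comparisons, as points with 95% confidence intervals from limma (horizontal axis, log2). In the mean doxycycline response, SMG1 was at 0.74, SMG6 at 0.55 and RBM8A at -0.42; SMG1 is the point with an adjusted p under 0.05.

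Induction was addressed within the WT line, WT dox+ against WT dox-, which raises total and wild-type U2AF1 and exposes the cells to doxycycline. No gene of the 9 passed, and 2 of all genes did (0.0132%). At an unadjusted p under 0.05 there were 3 of the 9, and 14.4% of all genes. These were SMG1 (0.61 ± 0.20, log2 ± SE; adjusted p = 0.250), SMG6 (0.47 ± 0.16; adjusted p = 0.272) and RBM8A (-0.34 ± 0.12; adjusted p = 0.272). The doxycycline response of the S34F line did not differ from that of the WT line for any of the 9 genes at either threshold (limma), and 4 of all genes passed (0.0264%; 3.42% at an unadjusted p under 0.05). This contrast rests on the single S34F dox- library. Its estimates ran from -0.43 ± 0.27 for UPF3A to 0.25 ± 0.31 for SMG1, so that differences between the lines of these sizes were not detectable. Between WT dox- and the parental line none of the 9 passed, and 15 genes of all did (0.0988%). None of the 9 reached an unadjusted p under 0.05 there either (12.3% of all genes), and the largest difference was 0.30 ± 0.15 for MAGOH.

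After these values had been seen, the responses of the WT and S34F lines were averaged in the same fit. In this mean doxycycline response 589 of all genes passed (3.88%), 424 higher and 165 lower, and SMG1 was the only one of the 9 genes. At an unadjusted p under 0.05 there were 4 of the 9, SMG1, SMG6, RBM8A and UPF1, and 25.1% of all genes. The median over the 9 genes was -0.19 on the log2 scale and over all genes tested 0.08.

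SMG1 was at 33.7, 33.5, 36.1 and 48.5 FPKM in the dox+ libraries (WT first). It was at 22.9 and 20.4 in WT dox-, 22.6 in S34F dox- and 23.8 and 17.0 in the parental line. All 4 dox+ libraries lay above the other 5. Its mean response was 0.74 ± 0.16 (log2 ± SE; adjusted p = 0.0481). That call held in 2 of 12 alternative settings, over which the response was 0.63 to 0.84 and the adjusted p 0.0374 to 0.156, and it was lost on leaving out any of the 6 replicated libraries of the contrast. SMG1P1, a pseudogene with near-identical sequence, was at 87.5 to 111 FPKM in the dox+ libraries and 41.5 to 71.4 in the others, and its mean response was 0.98 ± 0.15 (adjusted p = 0.0231; it passed in 7 of 12 alternatives). How reads were divided between SMG1 and its copies cannot be checked here, so the level of SMG1 itself is uncertain.

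SMG6 was at 10.9, 11.6, 12.3 and 15.5 FPKM in the dox+ libraries, 8.24 and 7.45 in WT dox-, 8.61 in S34F dox- and 9.94 and 8.95 in the parental line. Here too the dox+ libraries did not overlap the others. Its mean response of 0.55 ± 0.13 missed the threshold (adjusted p = 0.0567) and missed it in all 12 alternatives. The estimates for SMG6 and the kinase SMG1 were both above 0. SMG5, the adaptor that acts beside SMG6, was at 32.4 to 40.5 FPKM in the dox+ libraries and 35.4 to 42.8 in the others, and its mean response was -0.19 ± 0.10 (adjusted p = 0.293). The ratio of SMG6 to SMG5 within a library was 0.303 to 0.383 in the dox+ libraries, 0.174 to 0.214 in the uninduced transduced lines and 0.236 and 0.281 in the parental line.

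RBM8A was at 105, 98.7, 93.5 and 110 FPKM in the dox+ libraries and at 135, 123, 142, 129 and 120 in WT dox-, S34F dox- and the parental line, in that order. The groups did not overlap, with RBM8A lower under doxycycline. The mean response was -0.42 ± 0.09 (adjusted p = 0.0521), and it passed in 3 of 12 alternatives, among them median-ratio scaling (-0.47; adjusted p = 0.0420). Counting SMG1, SMG6 and RBM8A, 3 of the 9 genes separated the 4 dox+ from the 5 other libraries, where 10.8% of all genes tested did. This count takes the parental line as dox-, as its label does. Against the 3 uninduced transduced libraries alone, these genes and UPF1 did not overlap, 4 of the 9, where 25% of all genes tested did not.

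UPF1 was at 21.7 to 28.3 FPKM in the dox+ libraries and 27.4 to 31.4 in the others. These ranges overlapped through S34F dox+ replicate 2, and the mean response was -0.32 ± 0.11 (adjusted p = 0.137). UPF2 was at 23.4 to 31.6 FPKM against 23.2 to 26.8, a response of 0.17 ± 0.12 (adjusted p = 0.407). Both WT dox+ values of UPF2, 30.2 and 29.5, lay above those of WT dox-, 24.1 and 23.2, while the S34F dox+ values of 23.4 and 31.6 lay on either side of the 26.8 in S34F dox-. UPF3B was at 47.3 to 66.4 FPKM in the dox+ libraries and 53.3 to 65.4 in the others, and its response of -0.05 ± 0.12 had a confidence interval from -0.34 to 0.23. The mean responses of UPF3A, -0.23 ± 0.13, and MAGOH, -0.26 ± 0.12, did not pass either.

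The estimates above 0 in the mean response were those of the 3 longest genes. The span between the transcript ends given in the splicing tables was 244 kb for SMG6, 122 kb for SMG1 and 116 kb for UPF2, the 3 genes with an estimate above 0. It was 36.3 kb for UPF1, 33.6 kb for SMG5, 24.2 kb for UPF3A, 19.0 kb for UPF3B, 11.7 kb for MAGOH and 5.98 kb for RBM8A. Over 7781 protein-coding genes that averaged 5 FPKM or more and had a span in these tables, the median response was -0.11 under 10 kb, -0.07 from 10 to 30 kb, 0.01 from 30 to 100 kb and 0.15 over 100 kb. SMG1 and SMG6 were above the upper quartile of their class, 0.34. RBM8A was below the lower quartile of its class, -0.25, UPF1 and SMG5 below that of theirs, -0.15, and MAGOH and UPF3A below that of theirs, -0.22. UPF2 and UPF3B were close to the medians of their classes. In S34F dox+ against WT dox+ the same medians were 0.02, 0.01, 0.00 and 0.03. The part of gene span, and of the larger number of genes at 1 FPKM or more in the dox+ libraries, in the responses of SMG1, SMG6 and RBM8A was not tested. Doxycycline, the added U2AF1 and the dox+ libraries as such cannot be told apart in this design.

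**Figure D3:**
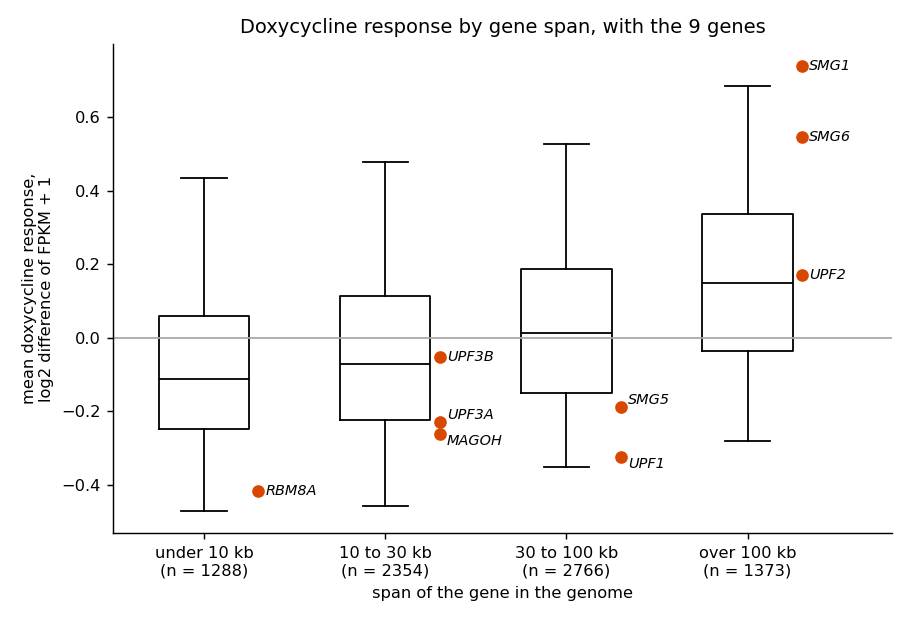
Mean doxycycline response (vertical axis, log2) of protein-coding genes in 4 classes of gene span, as boxes with median and quartiles and whiskers at the 5th and 95th percentiles, with the 9 genes as orange points. The class medians rise from -0.11 to 0.15, and SMG1, SMG6 and UPF2 are in the longest class.

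Levels of the 9 genes were also described against each other over the 9 libraries, which share the 5 conditions and the scaling of each library, so the correlations are given without a test. Pearson's r of log2(FPKM + 1) was 0.94 for UPF1 and RBM8A, 0.92 for SMG1 and SMG6, 0.82 for UPF1 and SMG5 and 0.74 for UPF3A and MAGOH. It was lowest for SMG6 and RBM8A, at -0.70. Between MAGOH and its partner RBM8A it was 0.47. Among 9276 other protein-coding genes that averaged 5 FPKM or more, the most alike were HIGD1A for RBM8A (r = 0.97), NOTCH2NL for SMG1 (0.97), RAD54L for UPF3B (0.97), NBEAL1 for SMG6 (0.96) and WDR46 for UPF1 (0.96). They were C16orf91 for SMG5 (0.95), COX11 for UPF3A (0.95), KPNA4 for MAGOH (0.94) and BMP2K for UPF2 (0.92). Each of these values is the highest of 9276 over only 9 libraries. How high it would be for any other gene was not tested.

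Splicing was compared between S34F and WT cells with PSI, the fraction of transcripts with one form of an event, and the Bayes factor for a difference, both as the authors deposited them from MISO. This comparison has no replicates. An event was called at a PSI difference of at least 0.10, a Bayes factor of at least 5 and at least 10 reads. The tables do not say which form PSI refers to. For skipped exons it was read as the fraction with the exon, and for the other types only the size of the difference is described. The reads listed for events of a gene were nearly equal for most of the genes (4592 to 4622 in S34F cells for all 7 SMG1 events). They differed within MAGOH (45 to 310 in S34F cells) and UPF3A (39 to 224). Where nearly equal, they give the coverage of the gene more than that of the event. The depth behind a PSI is therefore not known.

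The 9 genes had 53 events, of which 21 were skipped exons, 12 NAGNAG sites (3′ splice sites 3 nucleotides apart), 10 other alternative 3′ splice sites, 6 alternative 5′ splice sites and 4 retained introns. All had enough reads, and 1 was called, a skipped exon, where 1.18% of 87763 events of all types and 1.36% of skipped exons were called. A PSI difference of at least 0.10 alone was seen in 16 of the 53 (30.2%), against 32.9% of all events, and the median absolute difference was 0.04 against 0.05. UPF3A held 10 of the 16, several of them with shared junctions. Median reads in S34F and WT cells were 1172 and 1674 for the 53 events, but 223 and 320 for all events. These shares therefore do not compare events of like coverage.

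The called event was a skipped exon of UPF3B on the minus strand of the X chromosome (hg19). The junction into it joins positions 118974647 and 118975039, and the skipping junction joins 118972490 and 118975039. PSI was 0.24 in S34F cells and 0.38 in WT cells, a difference of -0.14 with a Bayes factor of 7.84 and 1585 and 2673 reads. The fraction of transcripts with the exon was the lower in S34F cells. An alternative 5′ splice site event of the same exon places its other end at 118974609 or 118974557, which makes it 39 or 91 nucleotides long. The gene's other 3 events differed by at most 0.06, and its FPKM values in S34F dox+ and WT dox+ overlapped.

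The largest Bayes factor was at an exon of MAGOH on chromosome 1, minus strand, positions 53699214 to 53699324, 111 nucleotides. PSI was 0.98 in S34F cells and 0.90 in WT cells, with a Bayes factor of 116 and 310 and 608 reads, and the difference of 0.08 fell short of 0.10. A NAGNAG site of MAGOH, with ends at 53694626 and 53694623, had a PSI of 0.28 against 0.05. Its Bayes factor was 0.58, with 45 and 103 reads. In SMG1, a NAGNAG site on chromosome 16, minus strand, with 3′ ends at 18823449 and 18823446, had a PSI of 0.23 against 0.04 and a Bayes factor of 4.74, just under 5. This event is also listed under a second gene name, RP11-1035H13.2.

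UPF3A had the most events, 15, and 10 of them differed by at least 0.10, but none was called. Several of the 10 share a junction with another, so they are not 10 separate differences. Its reads were few, at most 224 in S34F cells and 318 in WT cells. A skipped exon on chromosome 13, plus strand, that begins at 115051734 had a PSI of 0.42 against 0.10 and a Bayes factor of 3.96. An alternative 3′ splice site at 115057080 or 115057109 had a PSI of 0.79 against 0.30 and a Bayes factor of 3.90. These 2 had the largest Bayes factors in the gene.

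In UPF1 an alternative 5′ splice site on chromosome 19, at 18963913 or 18963880, had a PSI of 0.92 against 0.78 with a Bayes factor of 1.57. An alternative 3′ splice site of UPF1 at 18965403 or 18965410 had a PSI of 0.73 against 0.91 (Bayes factor 0.80). Another, at 18976853 or 18976858, had 0.16 against 0.04 (Bayes factor 0.30). In UPF2, SMG5, SMG6 and RBM8A no event differed by 0.10. Their largest Bayes factors were 0.16 for a NAGNAG site of UPF2 with ends at 12001355 and 12001352, 0.18 for an SMG5 exon that begins at 156236469, 0.09 for the single event of SMG6, a NAGNAG site at 1985250 or 1985247, and 0.34 for an intron of RBM8A from 145508075 to 145508210. The PSI values were 0.07 against 0.04, 0.95 against 0.99, 0.05 against 0.04 and 0.81 against 0.90, S34F first. The last is also listed under a second gene name, RP11-315I20.1.

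**Figure D4:**
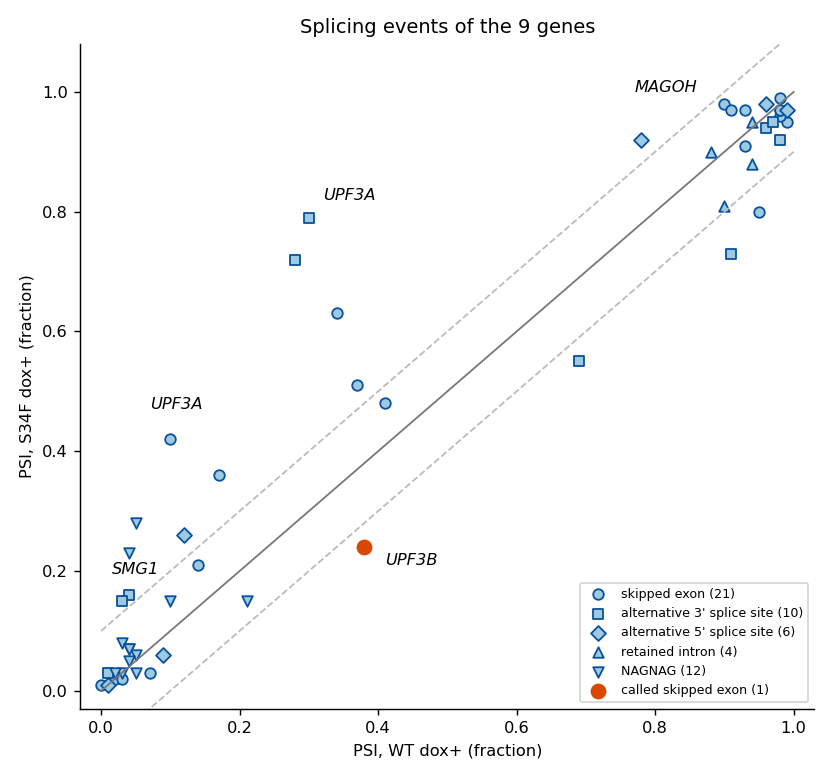
PSI in S34F dox+ (vertical axis) against WT dox+ (horizontal axis) for the 53 events of the 9 genes, with a symbol for each type. The solid line marks equal values and the dashed lines a difference of 0.10. The called UPF3B exon, at 0.24 against 0.38, is orange, and the events farthest above the line belong to UPF3A.

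The rest of the pathway was described by lists of genes. Of 11 other NMD factors none passed in S34F dox+ against WT dox+ (limma; 0 at an unadjusted p under 0.05), with a median difference of -0.05. The farthest apart without overlap were the SMG1 complex subunits SMG9 (18.7 ± 2.89 against 15.5 ± 0.89 FPKM; each SD, n = 2, here and in the following) and SMG8 (8.64 ± 0.57 against 10.1 ± 0.15), with MOV10, an RNA helicase that binds UPF1 (71.4 ± 1.96 against 63.4 ± 6.29), and GNL2, a nucleolar GTPase (90.2 ± 3.00 against 104 ± 5.95). In the mean doxycycline response 2 of the 11 passed, where 3.88% of all genes did. GNL2 fell by 0.59 ± 0.09 (adjusted p = 0.0231) and RUVBL2, an ATPase that assembles complexes of kinases such as SMG1, fell by 0.53 ± 0.08 (adjusted p = 0.0229). Each passed in 7 of 12 alternatives. The parental values lay between the dox+ and the uninduced transduced libraries. For GNL2 these were 127 and 112 FPKM, against 88.1 to 108 and 138 to 156.5. For RUVBL2 they were 89.9 and 88.9 FPKM, against 68.9 to 83.85 and 108 to 114.

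Of 11 other exon junction complex proteins none passed in either comparison (limma; at an unadjusted p under 0.05, 0 in the first and 3, all lower, in the second, where all genes gave 6.78% and 25.1%), with medians of -0.08 between S34F dox+ and WT dox+ and -0.20 in the mean doxycycline response. SAP18 (34.8 ± 4.45 against 42.8 ± 4.39 FPKM) and the export adaptor ALYREF (87.2 ± 6.15 against 102 ± 4.39) were farthest apart without overlap, both with the lower values in S34F dox+. Of 23 genes of translation termination, cap binding and mRNA decay none passed in either (at an unadjusted p under 0.05, 4 lower in the first, and 2 higher and 5 lower in the second, beside the same shares of all genes). In S34F dox+ against WT dox+ 18 of the 23 estimates were below 0, as were 44.6% of those of all genes, and the median was -0.10 against 0.03 for all genes; the difference was not tested. The decapping cofactor DCP1A was at 13.2 ± 1.69 against 17.9 ± 0.81 FPKM, the exosome helicase SKIV2L at 16.7 ± 0.55 against 22.6 ± 0.45 and the deadenylase CNOT7 at 60.2 ± 4.91 against 53.8 ± 2.72.

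Levels of genes with transcripts known as NMD targets were described as well. FPKM is given per gene over all its forms, so NMD activity itself was not measured. Of 29 such genes none passed in either comparison, with medians of 0.05 between S34F dox+ and WT dox+ and 0.01 in the mean doxycycline response. At an unadjusted p under 0.05 there were 2 in the first, both higher in S34F dox+, where all genes gave 6.78%. They were SNHG12, a small nucleolar RNA host gene (1250 ± 356 against 693 ± 299 FPKM), and UPP1 (47.4 ± 5.04 against 34.2 ± 0.33). GADD45B, a stress gene, was at 21.6 ± 0.54 against 29.8 ± 0.62, and SNHG1, another such host gene, at 63.3 ± 11.2 against 74.1 ± 0.64. SNHG1 was also listed at 14655 FPKM in parental replicate 1 and at 55.4 to 78.8 in the other 8 libraries. The fit takes in all 9 libraries, and the SNHG1 difference between S34F dox+ and WT dox+ was -0.24 ± 1.94 (log2, SE). That SNHG1 did not pass therefore says little.

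Among 264 events of these NMD targets 3 were called, or 1.14%, close to the 1.18% of all events. They were an alternative 3′ splice site of SRSF7 (0.80 against 0.57; Bayes factor 57.8), a retained intron event of SRSF2 (0.50 against 0.38; 8.19) and an exon of ZFAS1 (0.22 against 0.53; 26.1). The SRSF2 event is also listed under a second gene name, RP11-318A15.7. None was called among 79 events of the 11 other NMD factors listed here, 82 of other exon junction complex proteins and 209 of the termination and decay genes.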

How the data were processed

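RNA-Seq of 9 libraries was analysed, and 2 iCLIP samples were not used here. The authors made stranded total RNA libraries, trimmed and aligned paired-end reads to GRCh37 (hg19) with STAR 2.3.0 and computed FPKM and TPM per gene with RSEM 1.2.29, as the labels and methods state. The deposited FPKM values were used, and TPM as an alternative. The authors' deposited MISO tables give PSI as a fraction, read counts and the Bayes factor, a score for a difference. Deposited PSI differences were not used and were computed from PSI. How replicates were combined for MISO is not given in the sources used here. Of events with several forms, the form with the largest Bayes factor was used.

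Levels were tested with limma 3.58.1 (R 4.3.3) on log2(FPKM + 1), a scale that understates changes of low genes, over genes that averaged 1 FPKM or more, with 5 groups in 1 fit and Benjamini-Hochberg adjustment. The fit was tested on simulated data. Events were joined by gene symbol with pandas. Alternatives covered the pseudocount, the filter, scaling, TPM, a replicate block, each replicate left out and the event thresholds. The genes and lists were chosen with earlier results of these data known. Listed genes were named when they passed, or as up to 2 in each direction with the largest difference between S34F dox+ and WT dox+ among those at 5 FPKM or more without overlap. For each gene the event with the largest Bayes factor was named. SRSF7, SRSF2 and ZFAS1 events were named after their values were seen. A gene of the pathway is not reported here. Splice site sequences are not printed, as no hg19 genome was used here.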

Additional observations from a re-analysis of the deposited data

How the results depend on the processing

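Groups held 2 libraries or, in S34F dox-, 1, and the splicing comparison had no replicates. No gene of the 9 passed in S34F dox+ against WT dox+, WT dox+ against WT dox-, the difference of the responses or WT dox- against parental under any alternative run. In the mean doxycycline response SMG1 lost its call with no minimum FPKM (adjusted p = 0.135), median-ratio scaling (0.0540), TPM (0.0650), the replicate block (0.0789) and without any 1 replicate (0.0529 to 0.156). RBM8A passed with a pseudocount of 0.1 (0.0484), a minimum of 5 FPKM (0.0458) and median-ratio scaling (0.0420).

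Counts of all genes called moved by more than 1.5 times. In S34F dox+ against WT dox+ there were 8, but 4 with a pseudocount of 0.1, 3 with no minimum, and 4 to 28 without 1 replicate. In WT dox+ against WT dox- there were 2, but 7 with a pseudocount of 0.1, 0 with no minimum, 8 with a minimum of 5 FPKM, 0 with median-ratio scaling, 0 with TPM and 0 to 9 without 1 replicate. In the difference of the responses there were 4, but 33 with no minimum and 2 to 11 without 1 replicate. In WT dox- against parental there were 15, but 4 with no minimum and 3 to 28 without 1 replicate. In the mean response there were 589, but 140 with no minimum and 25 to 390 without 1 replicate, with 25 each without WT dox+ replicate 1 and replicate 2. The UPF3B event was lost at a Bayes factor of at least 10 or 20 or a PSI difference of at least 0.20 (0 events each). The causes were not tested.

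Replicate numbers are shared between groups but no source says that they mark pairs. Differences between replicates 1 and 2 correlated between groups at -0.08 to 0.04. These values show no strong effect shared by replicate number, but cannot tell whether the samples were paired. With a replicate block, 5 genes passed in S34F dox+ against WT dox+, 0 in WT dox+ against WT dox-, 6 in WT dox- against parental and 242 in the mean response. Under the block the difference of the responses turned to 0.016 for UPF1 and 0.017 for UPF3B.

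Some estimates near 0 changed sign. In S34F dox+ against WT dox+, TPM gave -0.064 for UPF1 and -0.001 for SMG5. Leaving out 1 replicate gave ranges of -0.14 to 0.23 for UPF1, -0.34 to 0.079 for UPF2, -0.40 to 0.04 for UPF3B, -0.01 to 0.24 for SMG5 and -0.12 to 0.11 for RBM8A. In WT dox+ against WT dox-, TPM gave 0.011 for UPF3A and 0.001 for UPF3B, and the ranges without 1 replicate were -0.21 to 0.17 for UPF3A, -0.11 to 0.05 for UPF3B and -0.32 to 0.077 for MAGOH. In the difference of the responses, TPM gave -0.009 for SMG5, and the ranges were -0.20 to 0.17 for UPF1 and -0.27 to 0.17 for UPF3B. In WT dox- against parental, UPF2 was at 0.005 with median-ratio scaling and 0.10 with TPM, and the ranges were -0.031 to 0.029 for UPF2, -0.043 to 0.33 for UPF3A, -0.14 to 0.33 for SMG1 and -0.017 to 0.12 for RBM8A. In the mean response only UPF3B changed sign, at -0.16 to 0.056 without 1 replicate. SMG1, SMG6, UPF3A and MAGOH kept their direction between S34F dox+ and WT dox+ in all 10 alternatives of each, but without 1 replicate the values ranged from 0.10 to 0.52 for SMG1, 0.12 to 0.43 for SMG6, -0.48 to -0.13 for UPF3A and -0.53 to -0.37 for MAGOH.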
